A study of Mus musculus with 8 samples.

Results

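The amino acid transporters described here were the 59 genes, of 22609 in the count tables, whose symbols place them in the solute carrier families Slc1, Slc3, Slc6, Slc7, Slc36, Slc38 and Slc43, so that they were chosen by name and not by any measured value. They were measured by RNA-Seq in the renal cortex of 4 aged mice (30 months in the sample labels) and 4 young mice (5 months), all of them untreated male C57BL6 mice, with 1 library per mouse. The study compared the ages to find genes whose expression differed in the aging kidney. Of the 59 genes, 41 held at least 10 counts in 4 or more libraries and are reported, and 40 of these passed the filter on low counts of the test.

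Amino acids that pass the glomerular filter are taken back almost entirely in the proximal tubule. Carriers in the luminal brush border, many driven by sodium, bring them into the cell, and exchangers and facilitators in the basolateral membrane pass them on to the blood. Several carriers of the Slc7 family work only as a light chain bound to a heavy chain, rBAT (Slc3a1) in the brush border or its relative Slc3a2 in the basolateral membrane. Other members carry osmolytes such as taurine, feed the cell with glutamine, or empty the lysosome.

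In aged mice 2 of the 40 transporters tested rose and none fell at an adjusted p below 0.05 (edgeR's quasi-likelihood test, Benjamini-Hochberg adjusted over 13944 genes). The genes were Slc38a4, a sodium-coupled carrier of neutral amino acids, which rose 3.77-fold, and Slc1a2, a high-affinity glutamate carrier, which rose 1.57-fold. These were 5.0% of the transporters in either direction, where 2.95% of all genes tested passed. Higher calls made up 1.51% of all genes and lower calls 1.44%. At an unadjusted p below 0.05 stood 15 of the 40 transporters (37.5%), 8 of them higher and 7 lower in aged mice, against 25.5% of all genes. The share of calls rests on 2 genes and lay near that of all genes.

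Leaving out single mice moved the calls, though those of the transporters and of all genes did not always move together. Without aged mouse 1 or aged mouse 2 the same 2 transporters were called, where 5.83% and 1.07% of all genes were. None of the 40 was called when aged mouse 3, young mouse 1, young mouse 2, young mouse 3 or young mouse 4 was left out, and these fits called only 0.0567% to 0.907% of all genes. Without aged mouse 4, 3 were called higher (Slc38a2 joined the pair) and 4 were called lower, namely Slc1a4, Slc6a15, Slc6a9 and Slc7a13. This fit called 7.83% of all genes, against 2.95% with all mice. In these 4 genes and in Slc38a2, aged mouse 4 was the aged mouse nearest the young mice, so the added calls decide nothing. DESeq2 called 4 higher (Slc1a2, Slc38a2, Slc38a4 and Slc6a19) and 5 lower (Slc1a4, Slc38a1, Slc6a13, Slc6a15 and Slc6a9), at a rate of 12.1% over all genes. The voom method of limma with sample quality weights called Slc1a2 and Slc38a4 higher and Slc1a4, Slc6a15 and Slc6a9 lower, at 6.44% over all genes. Of the genes in these counts, Slc38a2 and Slc6a13 were named after their values were seen.

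The aged mice stood wholly above the young mice in 4 transporters, namely Slc38a4, Slc1a2, Slc6a19 and Slc6a14, which is 10% of them, against 8.85% of all genes. They stood wholly below in 3 transporters (7.5%), namely Slc1a4, Slc6a9 and Slc38a1, against 10% of all genes. The fitted log2 fold change was above 0 in 25 transporters and below 0 in 15, where it was above 0 in 54.1% of all genes tested. Its median was 0.20 in the transporters beside 0.03 over all genes. Without aged mouse 1 these medians were 0.05 and 0.02. The plot of fold changes by role shows the estimates with their standard errors.

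**Figure D1:**
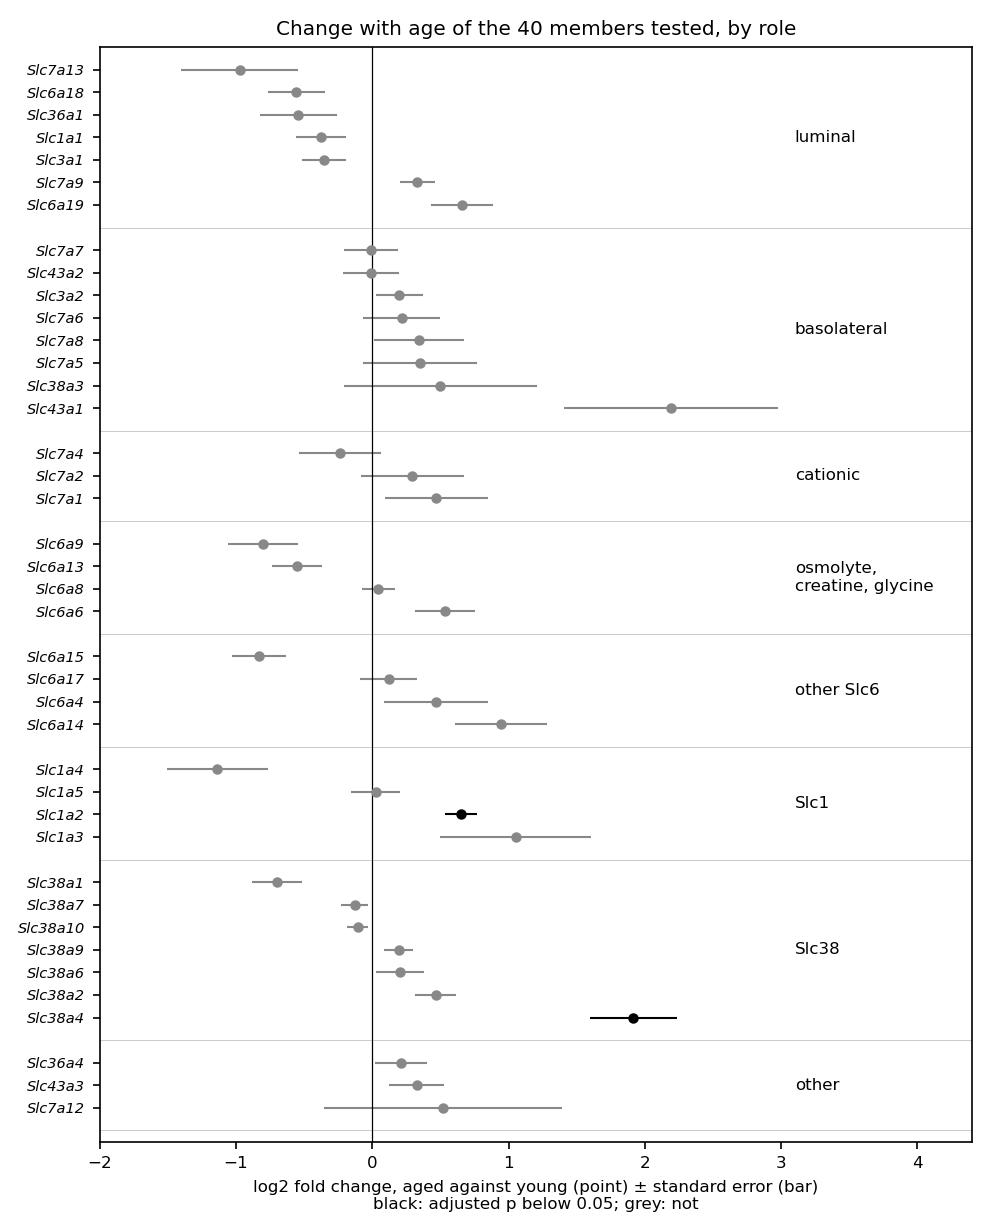
Estimated log2 fold change, aged against young (horizontal axis, point), with its standard error (bar) for the 40 transporters tested, grouped by role, with 4 mice per group. Black points mark the 2 genes with an adjusted p below 0.05, Slc1a2 at 0.65 and Slc38a4 at 1.92, and the remaining 38 in grey spread on both sides of 0, from -1.14 (Slc1a4) to 2.19 (Slc43a1).

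Libraries of the aged mice held 14820804 to 19018543 counts on genes and those of the young mice 15152597 to 19821429, so that 3 counts corresponded to 0.147 to 0.204 CPM (counts scaled to the normalized library size). Aged mouse 1 lay at -71.5 on the first principal component of all genes and the other aged mice between -16.3 and 2.26. Proximal tubule markers were abundant, and no marker of the 12 cell type and injury lists was at 0 counts. The summed CPM of 8 markers of the early proximal tubule was 11270 in aged mouse 1, 22180 to 24661 in the other aged mice and 21505 to 26123 in the young mice. The summed CPM of 5 markers of its last segment, S3, was 425, 727, 492 and 2290 in aged mice 1 to 4, against 3079 to 4949 in the young mice, so that the groups did not overlap. Most of each sum was Atp11a (318 to 1733 CPM in aged and 2152 to 3332 CPM in young mice). Singly, 3 of the 5 markers had all aged mice below all young mice. The others overlapped, among them a marker where aged mouse 4 had 182 CPM and the young mice 129 to 157 CPM. One of the 5, Acsm3, an enzyme that activates medium-chain fatty acids, fell with a log2 fold change of -2.80 (SE 0.62, adjusted p = 0.0491 by the same edgeR test). With 1 mouse left out it kept its call only without aged mouse 4, and the adjusted p was 0.0541 to 0.132 without any other mouse. Of 5 macrophage markers 1, Csf1r, the receptor of a macrophage growth factor, fell 2.01-fold (SE 0.22 on the log2 scale, adjusted p = 0.0472), and with 1 mouse left out it kept its call only without aged mouse 1 or aged mouse 4 (adjusted p 0.0737 to 0.131 without any other mouse). The other 4 macrophage markers went the other way, with log2 fold changes of 0.13 to 0.71, and none of them was called. Of 4 fibroblast markers none was called, and the aged mice lay wholly below the young mice in Col1a1 and Col3a1 (log2 fold changes -1.20 and -1.24, adjusted p = 0.0729 and 0.0559), which encode fibrillar collagens. The other fibroblast markers did not share this: Dcn had a log2 fold change of 0.62 and Pdgfrb one of -0.17, and in both the ages overlapped. No marker of the other 9 lists was called, and these markers' part in the transporter values was not tested. In whole cortex, fewer cells of a type and less RNA per cell cannot be told apart.

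Levels of the transporters covered a wide range in CPM per kilobase of exon, the scale on which genes can be compared with each other. In young mice the highest levels were those of Slc7a13, a luminal carrier of aspartate, glutamate and cystine (508 ± 63.2 CPM per kb, SD, n = 4), and Slc3a1, the heavy chain rBAT (385 ± 37.9 CPM per kb, SD, n = 4). Slc6a18, a luminal carrier of glycine and other neutral amino acids, followed at 152 ± 26.4 CPM per kb (SD, n = 4), and Slc6a6, the taurine carrier, at 111 ± 17.4 CPM per kb (SD, n = 4), and the ranges of these genes overlapped. A closely spaced group came next, from Slc1a1 (67.0 ± 2.05 CPM per kb, SD, n = 4) to Slc7a9 (45.2 ± 6.62 CPM per kb, SD, n = 4), with Slc7a7, Slc6a8, Slc3a2, Slc6a19 and Slc7a8 in between. Neighbours in this group lay within the spread of the mice, apart from the step from Slc6a8 (64.1 ± 6.03 CPM per kb, SD, n = 4) to Slc3a2 (53.3 ± 4.07 CPM per kb, SD, n = 4). In the aged mice Slc3a1 stood first (301 ± 65.5 CPM per kb, SD, n = 4) and Slc7a13 next (259 ± 175 CPM per kb, SD, n = 4), a difference smaller than the spread of Slc7a13. The lowest level reported was that of Slc38a11 (0.0701 ± 0.064 CPM per kb in young mice, SD, n = 4).

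**Figure D2:**
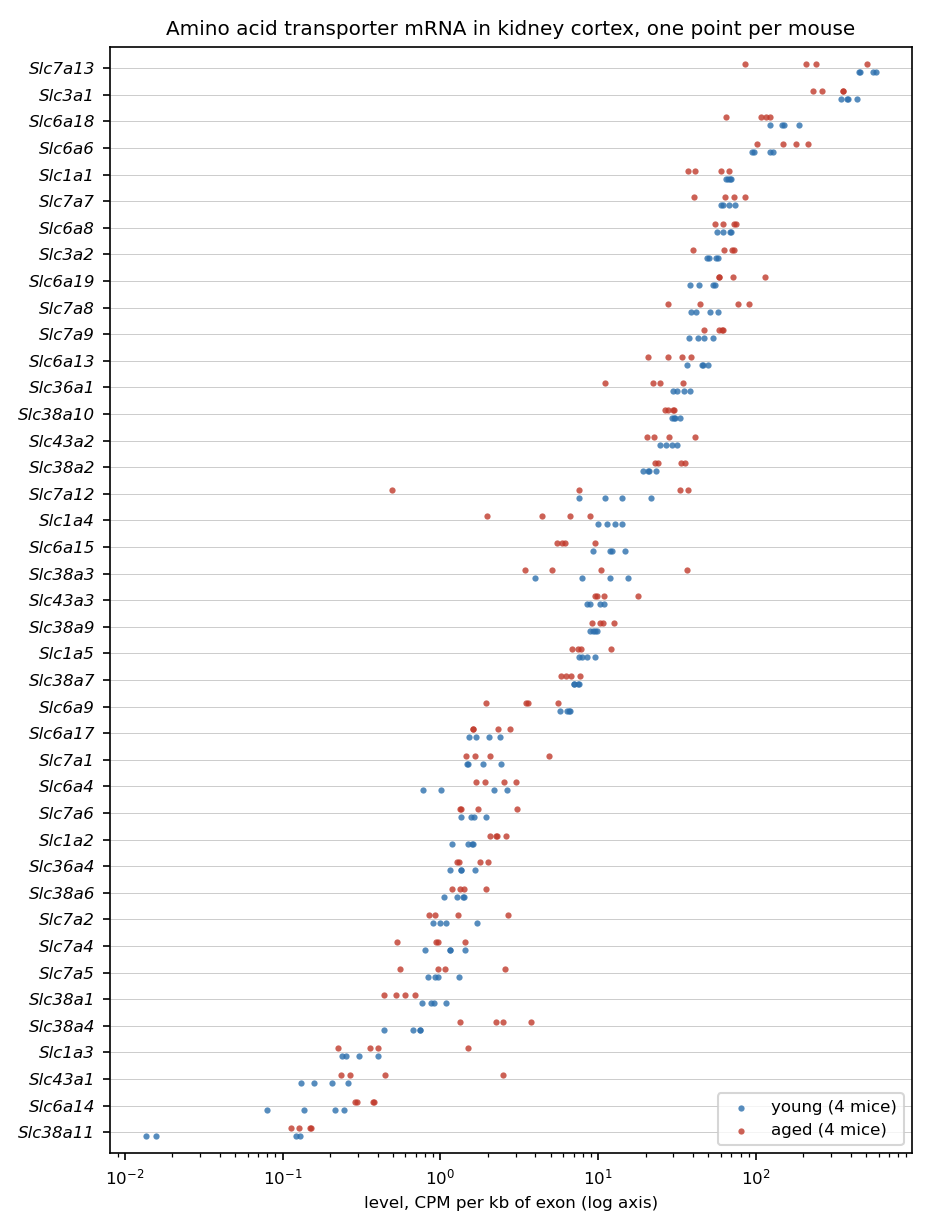
Level of the 41 reported transporters in each mouse, in CPM per kilobase of exon on a log axis, ordered by the mean of the young mice, with 1 point per mouse, blue for 4 young and red for 4 aged. The luminal carriers Slc7a13 (508 in young mice) and Slc3a1 (385) lie at the top, and red points spread more widely than blue ones in most genes.

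Both genes that rose were of low level per length. Slc38a4 (chr15:96825254-96886387, minus strand, mm9) carries small neutral amino acids with sodium and is best known from the liver. Its CPM was 9.13, 15.2, 9.995 and 5.39 in aged mice 1 to 4, against 2.71, 3.01, 2.99 and 1.77 in young mice 1 to 4. The lowest aged mouse, mouse 4, stood above the highest young mouse. The means were 9.94 ± 4.05 and 2.62 ± 0.584 CPM (SD, n = 4 each), and the log2 fold change was 1.92 (SE 0.32, adjusted p = 0.0275 by edgeR's quasi-likelihood test). The estimate ranged from 1.64 to 2.12 when 1 mouse was left out. The call was lost at an adjusted p of 0.0556 without aged mouse 3, 0.0907 without young mouse 1, 0.0757 without young mouse 2, 0.0871 without young mouse 3 and 0.102 without young mouse 4, and without aged mouse 4 the adjusted p was 0.00466.

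Slc1a2 (chr2:102498816-102630941, plus strand, mm9) takes up glutamate with sodium and is the main glutamate carrier of astrocytes. Its CPM was 34.1, 27.2, 30.3 and 29.7 in aged mice 1 to 4, against 15.6, 21.1, 21.0 and 19.6 in young mice 1 to 4. Every aged mouse stood above every young mouse, and the spread within each age was small. The means were 30.3 ± 2.87 and 19.3 ± 2.58 CPM (SD, n = 4 each), and the log2 fold change was 0.65 (SE 0.12, adjusted p = 0.0361 by edgeR's quasi-likelihood test). The estimate ranged from 0.56 to 0.70 when 1 mouse was left out. The call was lost at an adjusted p of 0.0637 without aged mouse 3, 0.0896 without young mouse 1, 0.0795 without young mouse 2, 0.0904 without young mouse 3 and 0.120 without young mouse 4. Its level in young mice, 1.47 ± 0.196 CPM per kb (SD, n = 4), was far below that of the luminal glutamate carrier Slc1a1.

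The promoter windows of these genes are shown because they are the 2 that rose. Each runs over a transcription start in RefSeq (GRCm38.p6, another build than that of the counts). For Slc1a2 this was chr2:102706188-102706487 on the plus strand, and for Slc38a4, which has 3 such windows, the most upstream one, chr15:97055907-97056206 on the minus strand. Whether the Slc1a2 window lies at the main start of the gene or at another start inside it was not tested. Neither held the core of the amino acid response element (TGATGNAA, or TTNCATCA on the other strand), the sequence bound by ATF4 with its partners at genes induced when amino acids are short, nor a half-site of HNF1 (GTTAAT, or ATTAAC on the other strand), a factor of proximal tubule genes, which says only that these letters are not in these windows.
Slc1a2: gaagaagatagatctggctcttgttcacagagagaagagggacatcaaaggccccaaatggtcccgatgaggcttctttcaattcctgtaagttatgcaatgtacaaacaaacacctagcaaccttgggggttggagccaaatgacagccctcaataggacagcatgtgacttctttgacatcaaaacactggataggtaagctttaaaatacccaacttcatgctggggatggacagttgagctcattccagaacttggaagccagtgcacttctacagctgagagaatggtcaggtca
Slc38a4: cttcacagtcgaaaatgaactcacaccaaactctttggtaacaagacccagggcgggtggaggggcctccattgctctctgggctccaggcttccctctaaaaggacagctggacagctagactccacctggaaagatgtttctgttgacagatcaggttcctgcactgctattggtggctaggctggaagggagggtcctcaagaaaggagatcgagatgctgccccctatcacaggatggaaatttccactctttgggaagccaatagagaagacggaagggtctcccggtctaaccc

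Among the luminal carriers, 7 of 8 genes were tested and none was called, with 2 log2 fold changes above 0 and 5 below (median -0.38). The carriers of neutral amino acids did not share a direction. Slc6a19, the main sodium-driven carrier of neutral amino acids of the brush border, had CPM of 356, 569, 293 and 290 in aged mice 1 to 4, against 192, 269, 275 and 219 in young mice 1 to 4. All aged mice stood above all young mice, by a narrow gap. Its log2 fold change was 0.66 (SE 0.23, adjusted p = 0.122 by the same edgeR test). Its neighbour on chromosome 13, Slc6a18, had CPM of 511, 475, 285 and 543 in aged and 668, 540.5, 641 and 822 in young mice. Only aged mouse 4 reached the range of the young mice, and the log2 fold change was -0.56 (SE 0.21, adjusted p = 0.143).

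The carriers of cystine and of basic and acidic amino acids included the largest estimate of the luminal group. Slc7a13 had CPM of 183, 511, 446 and 1076 in aged mice 1 to 4, against 1227, 979, 964 and 1181 in young mice 1 to 4. Aged mouse 4 lay among the young mice, and the other aged mice lay below all of them. The means of 554 ± 376 and 1088 ± 135 CPM (SD, n = 4 each) gave a log2 fold change of -0.97 (SE 0.43, adjusted p = 0.195 by the same edgeR test), and without aged mouse 4 it was -1.52 with an adjusted p of 0.0312. That mouse lay among the young, so leaving it out separated the ages by choice, and the p without it decides nothing. With any other mouse left out the gene was not called, and the adjusted p reached 0.331 without young mouse 4. Slc7a13 is known from the S3 segment, whose markers were likewise highest among the aged mice in mouse 4 (2290 CPM), and the part of these markers in the value was not tested.

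Slc3a1 had CPM of 531, 820, 602 and 827 in aged and 873, 795, 883 and 1006 in young mice (log2 fold change -0.36, SE 0.16, adjusted p = 0.208), with aged mice 2 and 4 inside the range of the young. Slc7a9, the light chain that with rBAT takes up cystine and basic amino acids, had CPM of 124, 161, 155 and 163 in aged and 99.5, 114, 141 and 125 in young mice (log2 fold change 0.33, SE 0.13, adjusted p = 0.154). Of its aged mice only mouse 1 lay within the young range. Slc1a1, the luminal carrier of glutamate and aspartate, had a log2 fold change of -0.38 (SE 0.18, adjusted p = 0.227), and Slc36a1, which carries small neutral amino acids with protons, one of -0.54 (SE 0.28, adjusted p = 0.254). In both, aged mouse 4 was the highest of the aged mice and aged mouse 1 the lowest, at 62.2 CPM for Slc36a1 where the other aged mice had 125 to 194 CPM.

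**Figure D3:**
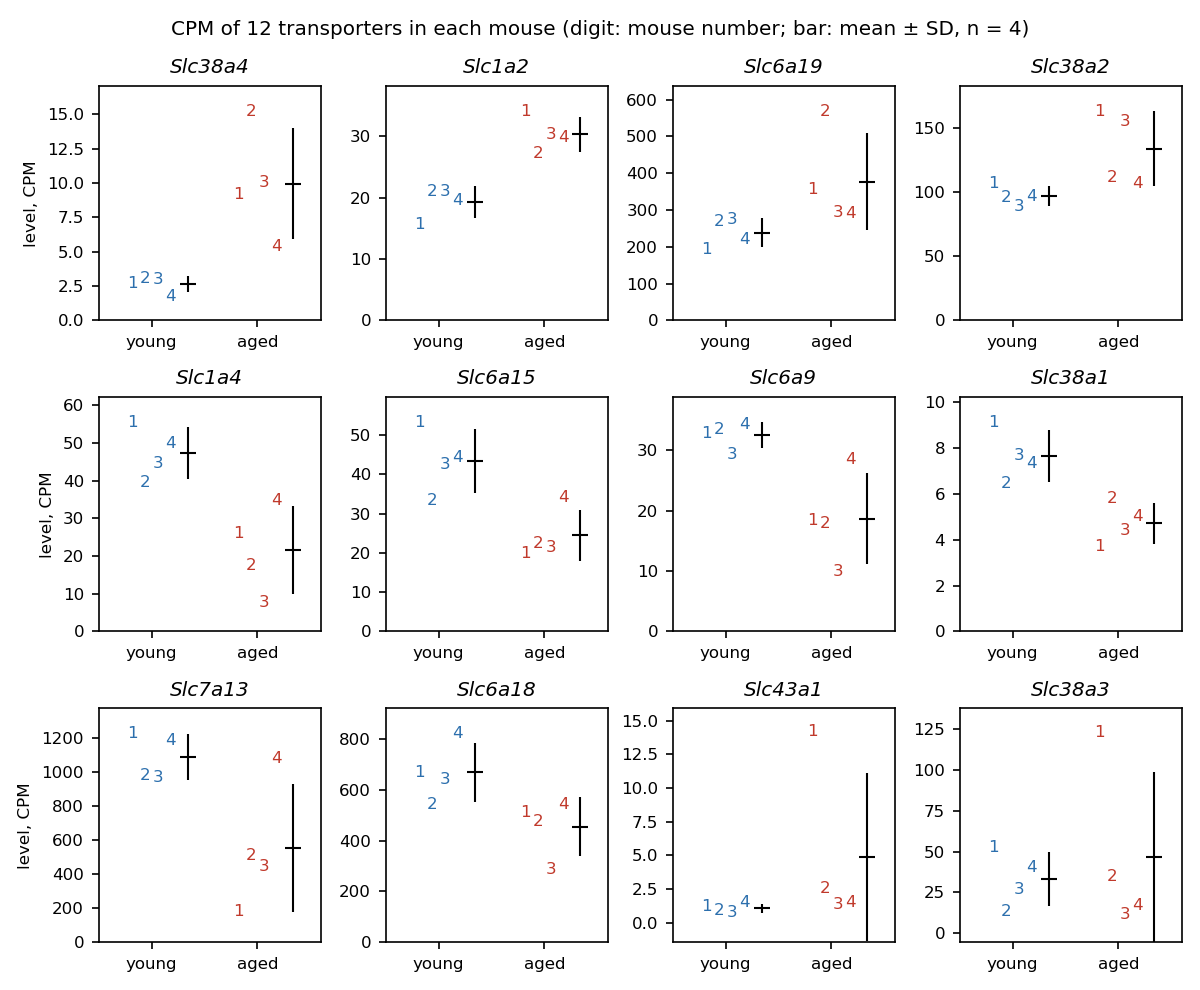
CPM of 12 transporters in each mouse, with digits for the mouse number (blue young, red aged) and bars for mean ± SD (n = 4 per group). The aged mice lie wholly above the young mice in Slc38a4, Slc1a2 and Slc6a19, aged mouse 4 lies nearest the young mice in Slc1a4, Slc6a15, Slc6a9 and Slc7a13, and aged mouse 1 stands alone in Slc43a1 (14.2 CPM) and Slc38a3 (123 CPM).

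Since rBAT is shared by its light chains, and since Slc6a18 and Slc6a19 carry similar amino acids, these genes were also compared as ratios. The ratios were of counts per kilobase within each library and do not depend on how libraries are scaled. They can still depend on the mix of tubule segments. The summed CPM of the S3 markers was 425 to 2290 in aged and 3079 to 4949 in young mice, and its part in the ratios was not tested. The ratio of Slc7a9 to Slc3a1 was 0.203, 0.171, 0.224 and 0.172 in aged mice 1 to 4, against 0.0993, 0.124, 0.139 and 0.108 in young mice 1 to 4. It was higher in every aged mouse (mean 0.192 ± 0.0259 against 0.118 ± 0.0176, SD, n = 4 each), with a log2 difference of 0.71. The two-sided exact permutation test gave p = 0.0286, the smallest it can give with 4 against 4, and 0.0429 adjusted over the 3 ratios.

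The ratio of Slc6a18 to Slc6a19 was 1.63, 0.949, 1.11 and 2.13 in aged mice and 3.95, 2.29, 2.65 and 4.26 in young mice. It was lower in every aged mouse (mean 1.45 ± 0.535 against 3.29 ± 0.968, SD, n = 4 each), with a log2 difference of -1.20 (exact permutation p = 0.0286, adjusted 0.0429). For both ratios the adjusted exact p was 0.0857 without aged mouse 2, without aged mouse 3 or without any one of the 4 young mice. The ratio of Slc7a13 to Slc3a1 was 0.371, 0.671, 0.799 and 1.40 in aged mice and 1.51, 1.33, 1.18 and 1.27 in young mice, and aged mouse 4 lay inside the young range. Its log2 difference was -0.86 (exact permutation p = 0.114), and without aged mouse 4 it was -1.17 (adjusted exact p = 0.0286). That mouse was the only aged mouse inside the young range, so leaving it out separated the ages by choice, and the p without it decides nothing.

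**Figure D4:**
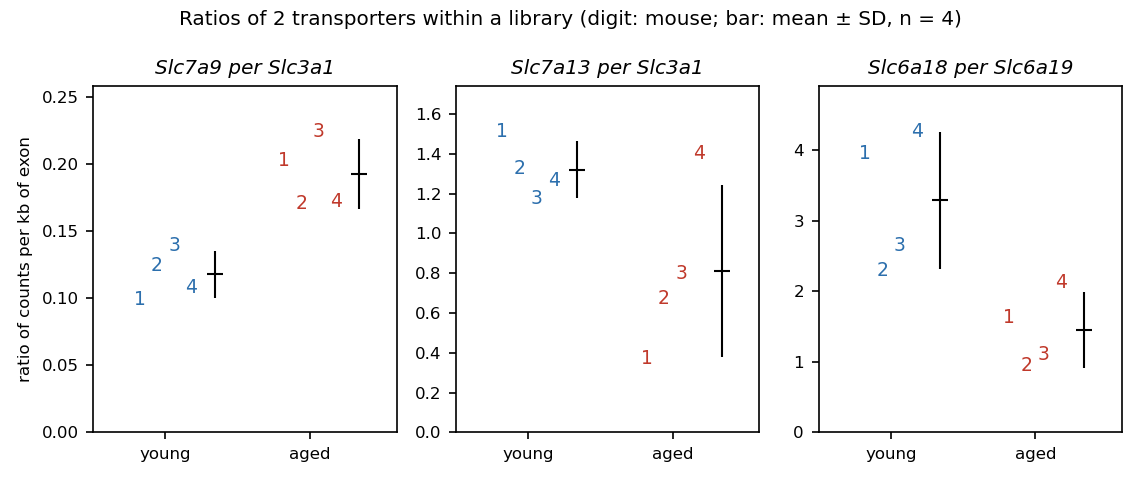
Ratio of the counts per kilobase of exon of a pair of transporters in each library (vertical axis), with digits for the mouse number (blue young, red aged) and bars for mean ± SD (n = 4 per group). Aged and young mice separate for Slc7a9 per Slc3a1 (0.192 against 0.118) and Slc6a18 per Slc6a19 (1.45 against 3.29), and overlap through aged mouse 4 for Slc7a13 per Slc3a1.

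On the basolateral side 8 of 10 genes were tested and none was called, with 6 log2 fold changes above 0 and 2 below (median 0.28). Slc7a7, the exchanger that releases basic amino acids to the blood and the most abundant of the group per length (65.9 ± 6.23 CPM per kb in young mice, SD, n = 4), had a mean of 148 ± 42.5 CPM in aged and 150 ± 14.1 CPM in young mice (SD, n = 4 each) and a log2 fold change of -0.01 (SE 0.20, adjusted p = 0.976 by the same edgeR test). Slc43a2, a facilitator of branched-chain and aromatic amino acids, had a log2 fold change of -0.01 (SE 0.21, adjusted p = 0.980), and the sign of both turned to positive when libraries were scaled by their size only. Slc3a2, the heavy chain of these exchangers, had a log2 fold change of 0.20 (SE 0.17, adjusted p = 0.484), and 6.54% of its longest transcript lay in near-identical sequence elsewhere in the genome.

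Slc7a8, the exchanger of neutral amino acids that works with Slc3a2, had CPM of 112, 366, 312 and 179 in aged mice 1 to 4, against 157 to 232 in the young mice, and the aged mice stood on both sides of the young. Its log2 fold change was 0.34 (SE 0.33, adjusted p = 0.535). Slc7a5, the exchanger of large neutral amino acids of dividing cells, and Slc7a6, an exchanger of basic for neutral amino acids, were low, at 3.56 ± 0.734 and 6.03 ± 0.934 CPM in young mice (SD, n = 4), with log2 fold changes of 0.35 (SE 0.42, adjusted p = 0.620) and 0.22 (SE 0.28, adjusted p = 0.651).

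The largest estimate of all, that of Slc43a1, a facilitator of large neutral amino acids, came from 1 mouse. Its CPM was 14.2, 2.54, 1.34 and 1.53 in aged mice 1 to 4, against 1.17, 0.899, 0.748 and 1.48 in young mice 1 to 4. The log2 fold change of 2.19 (SE 0.79, adjusted p = 0.132 by the same edgeR test) was 0.73 without aged mouse 1. Slc38a3, which brings glutamine into the proximal tubule for the making of ammonia, had CPM of 123, 35.1, 11.6 and 17.3 in aged and 52.3, 13.4, 26.8 and 40.2 in young mice. Aged mouse 1 again stood apart, and the log2 fold change of 0.50 (SE 0.71, adjusted p = 0.680) became -0.65 without it. The summed CPM of 4 tubular injury markers was 23.0 in aged mouse 1, 5.88 to 6.97 in the other aged mice and 2.86 to 8.63 in the young mice. Most of the sum in aged mouse 1 was Lcn2 (16.4 CPM), while Havcr1 was lower there (1.13 CPM) than in the other aged mice (2.15 to 3.00 CPM). The part of these markers in the values of Slc43a1 and Slc38a3 was not tested.

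**Figure D5:**
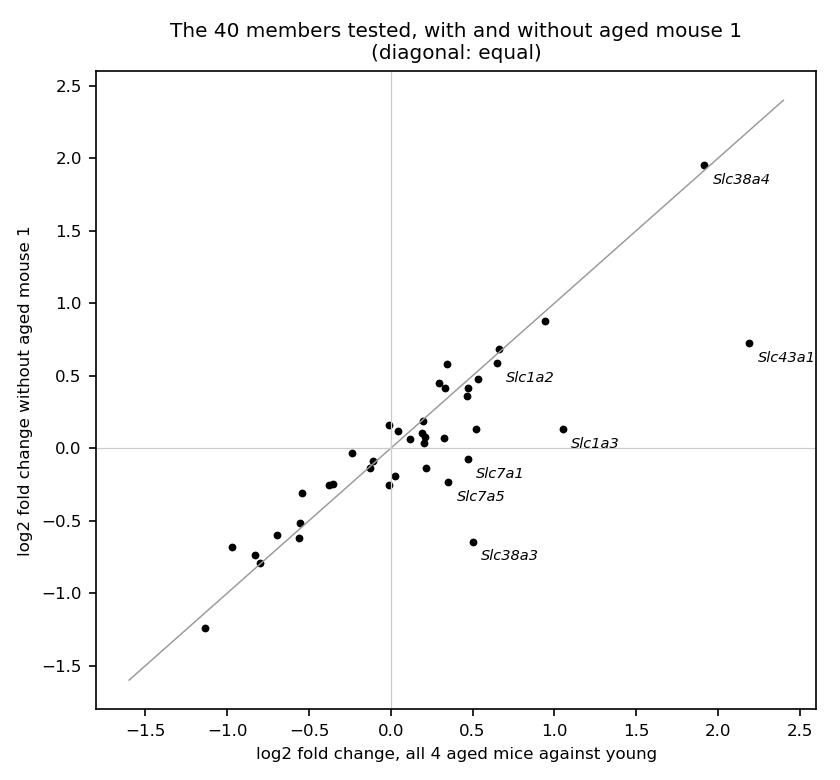
Log2 fold change of the 40 transporters tested with all 4 aged mice (horizontal axis) and without aged mouse 1 (vertical axis), with a diagonal where both are equal. Slc38a4 (1.92 and 1.95) and Slc1a2 (0.65 and 0.59) stay near the diagonal, and Slc43a1 (2.19 and 0.73), Slc1a3 (1.05 and 0.13) and Slc38a3 (0.50 and -0.65) fall far below it.

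In the Slc1 family beside Slc1a2, 3 more genes of glutamate and neutral carriers were tested. Slc1a4, an exchanger of alanine, serine, cysteine and threonine and the most abundant gene of this group per length in young mice (12.1 ± 1.76 CPM per kb, SD, n = 4), had CPM of 26.1, 17.4, 7.75 and 34.8 in aged mice 1 to 4, against 55.5, 39.4, 44.5 and 49.9 in young mice 1 to 4. All aged mice stood below all young mice. The log2 fold change was -1.14 (SE 0.37, adjusted p = 0.108 by the same edgeR test), DESeq2 gave an adjusted p of 0.0217, and without aged mouse 4 the edgeR value was -1.47 with an adjusted p of 0.0429. With any other mouse left out Slc1a4 was not called by edgeR, and the adjusted p reached 0.223 without young mouse 1. Slc1a3, a glutamate carrier, had a log2 fold change of 1.05 (SE 0.56, adjusted p = 0.261) that was 0.13 without aged mouse 1, which had 12.7 CPM where the other aged mice had 1.92 to 3.43 CPM. Slc1a5, the exchanger of glutamine and other neutral amino acids, was at 0.02 (SE 0.18, adjusted p = 0.942).

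The window at a start of Slc1a4 (chr11:20332664-20332963, minus strand, RefSeq, GRCm38.p6) is shown because it held the core of the amino acid response element, in capitals, on the reverse strand, and that of Slc3a1 (chr17:85028097-85028396, plus strand) because it held the half-site of HNF1, in capitals. The first motif was in 4 of the 62 windows found for 41 of the 59 transporters (6.45%) and in 3.97% of 32851 windows of all genes. The second was in 5 of 62 (8.06%) and in 7.1% of all windows. Windows of other reported transporters held these motifs too and are not shown. Slc7a7 held both, the first of them in overlapping windows, and Slc6a13 and Slc36a1 held the second. Such a match describes the letters only, and the shares of the transporters lay near those of all genes.
Slc1a4: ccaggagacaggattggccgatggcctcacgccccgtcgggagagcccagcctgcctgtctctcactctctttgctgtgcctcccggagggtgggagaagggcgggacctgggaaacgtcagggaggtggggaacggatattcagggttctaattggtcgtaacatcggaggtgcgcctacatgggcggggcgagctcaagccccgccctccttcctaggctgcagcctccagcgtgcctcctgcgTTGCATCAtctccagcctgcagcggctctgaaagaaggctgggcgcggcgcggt
Slc3a1: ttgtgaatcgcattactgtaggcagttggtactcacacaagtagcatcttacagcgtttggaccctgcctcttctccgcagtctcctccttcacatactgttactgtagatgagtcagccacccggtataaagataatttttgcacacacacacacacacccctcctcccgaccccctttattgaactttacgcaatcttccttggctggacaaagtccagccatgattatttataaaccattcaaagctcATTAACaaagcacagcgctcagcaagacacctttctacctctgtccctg

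Of the sodium-coupled and lysosomal carriers of Slc38, 7 were tested, and Slc38a4 was the 1 that rose. Slc38a1, which brings glutamine into cells, had CPM of 3.68, 5.79, 4.38 and 5.01 in aged mice 1 to 4, against 9.12, 6.45, 7.68 and 7.32 in young mice 1 to 4, with no overlap and a log2 fold change of -0.70 (SE 0.18, adjusted p = 0.0683 by the same edgeR test). Slc38a2, the system A carrier that cells raise when amino acids are short, had CPM of 163, 111, 155 and 107 in aged and 107, 95.7, 88.8 and 96.8 in young mice. The highest young mouse lay just above the lowest aged mouse, and the log2 fold change was 0.47 (SE 0.15, adjusted p = 0.104). Without aged mouse 4 it was 0.56 with an adjusted p of 0.0473, but with any other mouse left out Slc38a2 was not called (adjusted p up to 0.241, without young mouse 3). Thus the estimates of the 3 genes of this branch, Slc38a1, Slc38a2 and Slc38a4, had different signs.

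The most abundant gene of the Slc38 group was Slc38a10 (30.8 ± 1.53 CPM per kb in young mice, SD, n = 4). Its log2 fold change was -0.11 (SE 0.08, adjusted p = 0.407), and 0.0017 with library size only. The remaining Slc38 genes tested had log2 fold changes between -0.13 and 0.20, among them Slc38a9, the lysosomal carrier through which arginine signals to mTORC1 (0.19, SE 0.11, adjusted p = 0.276). The counts of Slc38a6 are uncertain, because 90.1% of its longest transcript lay in near-identical sequence elsewhere in the genome. Slc38a11 met the count minimum but not the filter of the test. With that minimum as the only filter its log2 fold change was 0.89 (SE 0.58, adjusted p = 0.356).

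The osmolyte, creatine and glycine carriers of Slc6 gave 4 genes to the test. The most abundant, the taurine carrier Slc6a6, had CPM of 1104, 1311, 627 and 918 in aged mice 1 to 4, against 760, 584, 599 and 792 in young mice 1 to 4. Aged mouse 3 lay among the young mice, and the log2 fold change was 0.53 (SE 0.22, adjusted p = 0.171 by the same edgeR test). Slc6a9, the glycine carrier, had CPM of 18.4, 17.8, 9.995 and 28.4 in aged and 32.9, 33.5, 29.4 and 34.3 in young mice. It was lower in all aged mice, of which mouse 4 came closest to the young, with a log2 fold change of -0.80 (SE 0.26, adjusted p = 0.104). Without aged mouse 4 it was -1.08 (adjusted p = 0.0225), but with any other mouse left out Slc6a9 was not called (adjusted p up to 0.218, without young mouse 4). Slc6a13, a carrier of GABA and taurine, had a log2 fold change of -0.55 (SE 0.18, adjusted p = 0.112), and the creatine carrier Slc6a8 one of 0.04 (SE 0.12, adjusted p = 0.834).

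Of the other carriers of Slc6, 4 were tested. Slc6a15, a carrier of branched-chain amino acids and proline and the highest of them per length (12.04 ± 2.26 CPM per kb in young mice, SD, n = 4), had CPM of 19.7, 22.4, 21.4 and 34.2 in aged and 53.3, 33.4, 42.6 and 44.4 in young mice. Aged mouse 4 just passed the lowest young mouse. The log2 fold change of -0.83 (SE 0.20, adjusted p = 0.0571) lay close to the threshold, and without aged mouse 4 it was -1.04 (adjusted p = 0.0101). With any other mouse left out Slc6a15 was not called, and the adjusted p reached 0.151 without young mouse 1. Slc6a14, a carrier of neutral and basic amino acids, stood near the limit of detection, at 0.981 to 1.30 CPM in aged and 0.272 to 0.846 CPM in young mice, with a log2 fold change of 0.94 (SE 0.34, adjusted p = 0.131).

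The cationic carriers Slc7a1, Slc7a2 and Slc7a4 were tested and none was called, with log2 fold changes between -0.24 and 0.47. The highest of them per length was Slc7a1, the widely used carrier of arginine and lysine, whose 0.47 (SE 0.38, adjusted p = 0.446) became -0.08 without aged mouse 1 (36.7 CPM, where the other aged mice had 11.01 to 15.55 CPM). The last 3 genes, Slc7a12, Slc36a4 and Slc43a3, had log2 fold changes between 0.21 and 0.52. Slc7a12, the highest of these per length in young mice, varied most, with CPM of 57.3, 64.3, 0.855 and 13.1 in aged mice 1 to 4, against 13.2 to 37.4 in the young mice (log2 fold change 0.52, SE 0.87, adjusted p = 0.730).

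The other 18 transporters held under 10 counts in 5 or more libraries. Of these, 3 had no count in any library, 10 had fewer than 10 counts in every library, and 5 reached 10 counts in 1 to 3 libraries (Slc6a12, Slc7a11, Slc36a2, Slc7a10 and Slc6a2). A count of 0 allows up to 0.147 to 0.204 CPM, which covers counting error only. The largest count of the 18 was that of Slc36a2, a proton-coupled carrier of glycine and proline, with 168, 21, 7 and 27 counts in aged mice 1 to 4, against 4, 0, 2 and 7 in young mice 1 to 4.

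The transporters varied more among the aged mice than among the young. The SD of log2 CPM was wider in the aged mice in 36 of the 40 (90.0%), with a median of 0.42 against 0.21, and over all genes it was wider in 83.4%. Aged mouse 1 was the highest or lowest aged mouse in 25 of the 40 (62.5%, against 69.0% of all genes), and aged mouse 4 in 23 (57.5%, against 45.3%). Among the 15 transporters with a log2 fold change below 0, aged mouse 4 was the highest aged mouse in 10 (66.7%), where it was so in 33.6% of all genes below 0. Among the 25 above 0 it was the lowest aged mouse in 11 (44.0%, against 29.4%). These shares are descriptions without a test, since the genes share the mice.

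Genes that work with the transporters showed few calls. Of 6 amino acid carriers outside the symbol rule none was called. Slc6a20a, a proline carrier, had a log2 fold change of 0.49 (SE 0.14, adjusted p = 0.0888 by the same edgeR test) and its relative Slc6a20b one of -0.36 (SE 0.24, adjusted p = 0.350), and 25.8% and 21.7% of their transcripts lay in near-identical sequence elsewhere in the genome, so that their counts may be split wrongly. Slc16a10, the basolateral carrier of aromatic amino acids, had 0.22 (SE 0.25, adjusted p = 0.606), and Ctns, the lysosomal cystine carrier, 0.39 (SE 0.12, adjusted p = 0.105). Slc15a4 and Pqlc2 completed this list without a call.

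No partner protein was called. Tmem27 (collectrin), which brings Slc6a19 to the brush border, had 1237 ± 450 CPM in aged and 1420 ± 133 CPM in young mice (SD, n = 4 each) and a log2 fold change of -0.20 (SE 0.26, adjusted p = 0.654). The scaffold proteins of the brush border, Pdzk1 and Slc9a3r1, had log2 fold changes of -0.72 (SE 0.31, adjusted p = 0.189) and -0.58 (SE 0.19, adjusted p = 0.113), and in both all aged mice lay below all young mice.

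Among 15 tested genes of the amino acid response through ATF4 none was called, with 11 log2 fold changes above 0 and 4 below (median 0.56). The smallest p belonged to Aars, the alanyl-tRNA synthetase (log2 fold change -0.31, SE 0.08, adjusted p = 0.0621), followed by Sesn2, an inhibitor of mTORC1 (1.07, SE 0.32, adjusted p = 0.0936). Aged mouse 1 had the highest Sesn2, at 164 CPM, where the other aged mice had 48.1 to 81.8 CPM. It was the highest aged mouse in most, though not all, of the 15 genes. In Nupr1 (log2 fold change 2.15, SE 0.87) it had 69.9 CPM and the other aged mice 4.63 to 7.29 CPM. How far the median of 0.56 rests on this mouse was not tested. Among the enzymes of amino acid metabolism, Hpd, an enzyme of tyrosine breakdown, rose from 43.7 ± 6.65 to 170 ± 91.9 CPM (SD, n = 4 each), at 1.96 on the log2 scale (SE 0.34, adjusted p = 0.0313). Without aged mouse 2 or any 1 of the young mice its adjusted p was 0.0578 to 0.106.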

How the data were processed

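Total RNA of each kidney cortex was depleted of ribosomal RNA and made into stranded libraries with the KAPA kit, and read from both ends at 100 bp. The authors processed the reads with CASAVA 1.8.2, aligned them to mm9 with TopHat2 and counted pairs per RefSeq gene with HTSeq, and they deposited raw counts per gene for each library. Lines that name no gene were left out. They held 20.0% to 29.9% of pairs as on no feature and 34.3% to 39.1% as not uniquely aligned. Groups came from the sample labels, which do not say more about the animals. Each p-value sets the difference between the ages against the spread within the ages in these 8 samples.

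Counts were normalized by TMM and tested with edgeR 4.0.16 (quasi-likelihood, filterByExpr with a minimum count of 10) in R 4.3.3, aged against young without covariate, with Benjamini-Hochberg adjustment over all genes tested. Standard errors were taken from the F statistic and the fold change. Log2 CPM used a prior count of 2. Ratios were compared by two-sided exact permutation. Exon lengths came from the GENCODE annotation of mm9. Copies of at least 98% identity over 100 nt were sought with BLAST 2.17.0. The test was tried on simulated data. DESeq2 1.42.0, limma 3.58.1 (voom), other scalings, filters and thresholds, the replicate block and each mouse left out were the alternatives. The DESeq program of the study's methods was not run. The mean age of the aged mice differs slightly between the labels and the study's methods, and the labels were used.

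The transporters, role groups, marker lists and tests were chosen with earlier results of these data known. Named were the called transporters, all tested luminal and basolateral ones, in the other groups those past a fold of 1.5 or highest per length, the related genes of the carrier and partner lists, and up to 4 of each other list with the smallest p. Further transporters were named outside this rule, among them Slc38a2, Slc6a13, Slc1a5, Slc6a8, Slc38a9 and Slc38a6. A few genes of these lists are not reported here.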

Additional observations from a re-analysis of the deposited data

How the results depend on the processing

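The number of transporters called higher was 2 under 3 other scalings, other filters, voom, a fold of at least 1.5 and an adjusted p below 0.1, 4 with DESeq2 and 0 to 3 with 1 mouse left out. The number called lower was 0, but 5 with DESeq2, 3 with voom, 2 at an adjusted p below 0.1 and 0 to 4 with 1 mouse left out. Calls over all genes went from 411 to 1685 with DESeq2, 898 with voom, 776 with library size only, and from 8 without young mouse 1 to 1102 without aged mouse 4. With the replicate block 1 transporter was called higher (Slc38a4), Slc1a2 had an adjusted p of 0.0785, and 132 genes were called over all. Hpd then had an adjusted p of 0.0507. Same-numbered mice correlated at 0.21, 0.04, 0.20 and -0.03 after their group means were removed, and the labels give the numbers no meaning. A sign-flip test on the replicate block left the log2 differences of the ratios at 0.71 (Slc7a9 per Slc3a1, adjusted exact p = 0.188) and -1.20 (Slc6a18 per Slc6a19, adjusted exact p = 0.188), with 4 pairs too few to pass, and the cause of the other changes was not tested. With 1 mouse left out these ranged from 0.63 to 0.80 and from -1.41 to -1.02, and Slc7a13 per Slc3a1 from -1.17 to -0.53.

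Over all genes the median log2 fold change was 0.03, and 0.14 with library size only. Of all calls 51.1% were higher, 62.4% with upper-quartile scaling and 76.9% with library size only. Some log2 fold changes turned sign. Slc38a10 was at 0.0017 with library size only. With upper-quartile scaling and with library size only, Slc43a2 was at 0.033 and 0.11 and Slc7a7 at 0.028 and 0.096. With voom, Slc7a7 was at 0.096, Slc1a5 at -0.13, Slc38a3 at -0.47, Slc7a12 at -1.24, Slc7a5 at -0.11 and Slc7a6 at -0.046. With the replicate block Slc1a5 was at -0.0068 and Slc7a12 at -0.15. With 1 mouse left out the log2 fold change ranged from -0.19 to 0.11 for Slc1a5, -0.65 to 0.82 for Slc38a3, -0.25 to 0.12 for Slc43a2, -0.051 to 0.24 for Slc6a17, -0.016 to 0.12 for Slc6a8, -0.077 to 0.66 for Slc7a1, -0.20 to 0.54 for Slc7a2, -0.23 to 0.60 for Slc7a5, -0.13 to 0.35 for Slc7a6 and -0.16 to 0.16 for Slc7a7. Adding 1 count to each gene left the ratios on the same side of the threshold. Genes under about 1 CPM, such as Slc6a14 and Slc38a11, are limited by depth.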
